A study of Mus musculus with 32 samples.

Results

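The genes that mark dendritic epidermal T cells were followed in mouse epidermis after a single UV exposure. They were chosen by symbol: Cd3d, Cd3e, Cd3g, Trdc, Cd7, Il2rb, Klrk1, Xcl1, Gzmb and Nkg7, which are 10 of the 55401 gene identifiers in each count file. All 10 were found and all 10 passed the minimum of 1 cpm (reads per 1000000 reads of the library) in at least 1 mouse. For the levels in cpm given below, the library size was first adjusted by TMM scaling in edgeR. RNA of 32 epidermis samples was sequenced, each from 1 mouse aged 10 to 14 weeks on the mixed SKH-1/SV129/BL6/J background. The 4 groups of 8 mice, each with 4 males and 4 females, were WT controls, WT mice 24 h after a dose of 120 mJ/cm2 UV that was below the erythemal dose, and their littermates labelled KO (PPARD-/-) without and with the same exposure. Control mice were handled in the same way without UV and carry the time label T0, so that exposure and time after handling cannot be told apart.

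Dendritic epidermal T cells are the gamma-delta T cells that live between the keratinocytes of mouse epidermis. They arise in the fetal thymus, carry a receptor of almost no diversity, and read stress from keratinocytes through that receptor and through NKG2D, the product of Klrk1. When activated they round up, release cytokines, chemokines and granule proteins, and take part in wound repair and tumour surveillance. The gamma-delta receptor reaches the cell surface only as a complex with CD3 chains. Cd3d, Cd3e, Cd3g and Trdc are grouped here as CD3 and delta chain genes. Whether each of these chains is part of the receptor in these cells was not tested. Cd7, Il2rb and Klrk1 are read as other surface receptors, and Xcl1, Gzmb and Nkg7 as effector and granule genes.

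Between 22919428 and 40653581 reads per mouse fell on genes (median 27600228), and the median of all 15546 genes tested moved by -0.01 on the log2 scale with UV in WT mice and by 0.09 in KO mice. The targeted gene Ppard was still read in the KO mice, at 70.2 to 88.8 cpm in controls and 174 to 239 cpm after UV, against 87.2 to 105 cpm and 252 to 326 cpm in WT mice. The labels do not give the deleted part of the gene, so these counts check the genotype labels only in part. A single WT control male (mouse 43M) had the lowest level of 9 of the 10 genes in its group, Gzmb being the exception, and a WT UV female (mouse 77F) had the highest level of 8, Cd3d and Xcl1 being the exceptions. A KO UV female (mouse 54F) had summed dermal fibroblast markers of 2236 cpm, against 17.2 to 39.9 cpm in the 7 other KO mice after UV and 7.42 to 17.5 cpm in WT mice after UV. In controls that sum was 115 to 545 cpm, and the part of dermal carry-over in the results was not tested. Receptor segments that define these T cells were read in every WT control, Tcrg-V5 at 0.328 to 3.49 cpm and Trdv4 at 0.401 to 6.29 cpm. Of the markers of other T cells and natural killer cells, Trac had 0.3 to 1.78 cpm, Cd8a 0.525 to 2.38 cpm and Cd4 0.075 to 0.911 cpm in the same mice, and Cd8b1, Ncr1 and Klrb1c did not pass the minimum. The 6 tested genes of that list summed to 37.6 to 55.5 cpm in WT controls, most of it Trbc2. The part of other T cells in the levels of the CD3 genes was not tested.

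The receptor genes fell with UV in both genotypes. In WT mice 8 of the 10 genes were lower and 2 higher at a Benjamini-Hochberg adjusted P value under 0.05 (edgeR's quasi-likelihood test), where 36.5% of all genes tested were lower and 34.5% higher. In KO mice 7 were lower and 2 higher, against 33.5% and 37.3% of all genes. Gzmb, among the higher genes in both genotypes, passed the minimum only through exposed mice. The median log2 fold change of the 10 genes was -1.13 in WT and -1.04 in KO mice. The sign was the same in both genotypes for each of the 10 genes, positive for Il2rb and Gzmb and negative for the others. UV and genotype comparisons were fitted gene by gene over all 32 mice, and no score over the 10 genes was tested. Fewer T cells and less RNA per T cell cannot be told apart in whole epidermis.

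**Figure D1:**
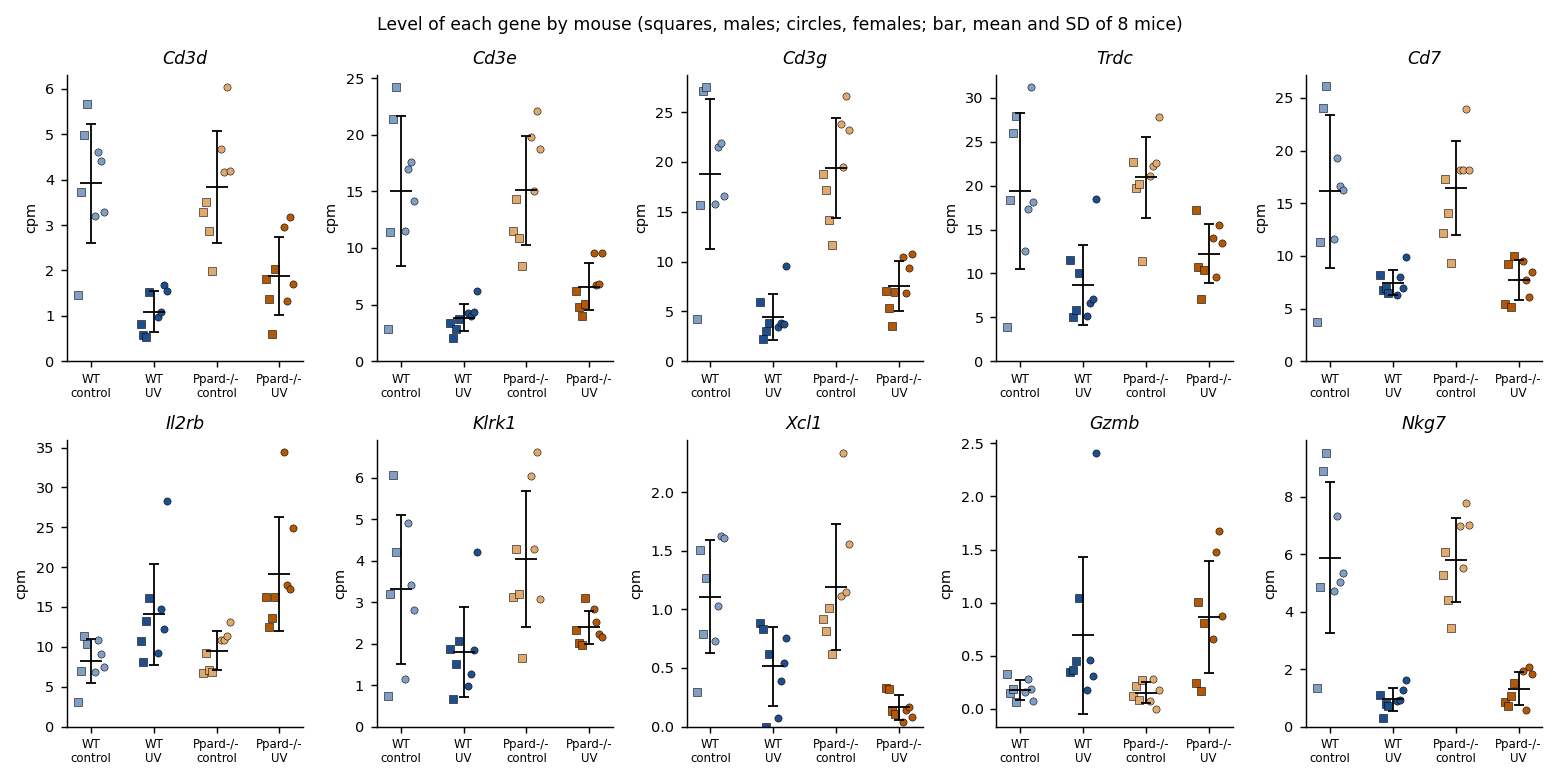
Level of each of the 10 genes in cpm (vertical axis, linear) in the 4 groups of 8 mice; squares are males, circles females, and bars show the mean and SD. The lowest Cd3e square among WT controls, at 2.88 cpm, is mouse 43M, and the highest Gzmb circle after UV in WT mice, at 2.41 cpm, is mouse 77F.

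Cd3e, the CD3 epsilon chain that carries the receptor's signal into the cell, ranged from 2.88 to 24.2 cpm in WT controls (median 15.6) and from 2.07 to 6.24 cpm after UV (median 3.84). The groups overlapped through mouse 43M, since the 7 other controls were at 11.4 cpm or more. The fall was 3.99-fold (log2 -1.99 ± 0.25 SE, n = 8 and 8, adjusted P = 7.08e-08). KO mice went from 8.38 to 22.1 cpm (median 14.7) to 3.99 to 9.59 cpm (median 6.46), a 2.28-fold fall (log2 -1.19 ± 0.25, adjusted P = 0.00011), and these groups overlapped.

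Cd3g, the CD3 gamma chain, had 4.23 to 27.5 cpm in WT controls (median 19.1) and 2.25 to 9.56 cpm after UV (median 3.78), a 4.26-fold fall (adjusted P = 1.85e-07). In KO mice it had 11.7 to 26.6 cpm without UV (median 19.2) and 3.52 to 10.8 cpm after UV (median 7.01), so that every exposed KO mouse lay under every KO control. The KO fall was 2.59-fold (adjusted P = 6.64e-05). Cd3d, the CD3 delta chain, was the least read of the CD3 genes, with 1.46 to 5.67 cpm in WT controls (median 4.06) and 0.539 to 1.67 cpm after UV (median 1.03). It fell 3.64-fold in WT mice (adjusted P = 9.71e-07). It fell 2.04-fold in KO mice (adjusted P = 0.00139), whose groups, at 1.98 to 6.04 and 0.598 to 3.18 cpm, overlapped.

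Trdc, the constant region of the delta chain, had smaller folds. It was at 3.9 to 31.3 cpm in WT controls (median 18.2) and 5.05 to 18.5 cpm after UV (median 6.9), with the highest exposed value again in mouse 77F. The fall was 2.23-fold in WT mice (log2 -1.16 ± 0.30, adjusted P = 0.00136). In KO mice it went from 11.4 to 27.8 cpm (median 21.7) to 7.05 to 17.2 cpm (median 12.1), a 1.71-fold fall (log2 -0.77 ± 0.30, adjusted P = 0.0248). That call was lost when KO UV mouse 54F (adjusted P = 0.0522) or mouse 61M (adjusted P = 0.052) was left out. Annotated genes lie on the other strand of Trdc, Cd7, Cd3e and Xcl1, and Gm48720 overlaps Cd3e on its own strand. How strand was counted is not given in the sources used here.

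**Figure D2:**
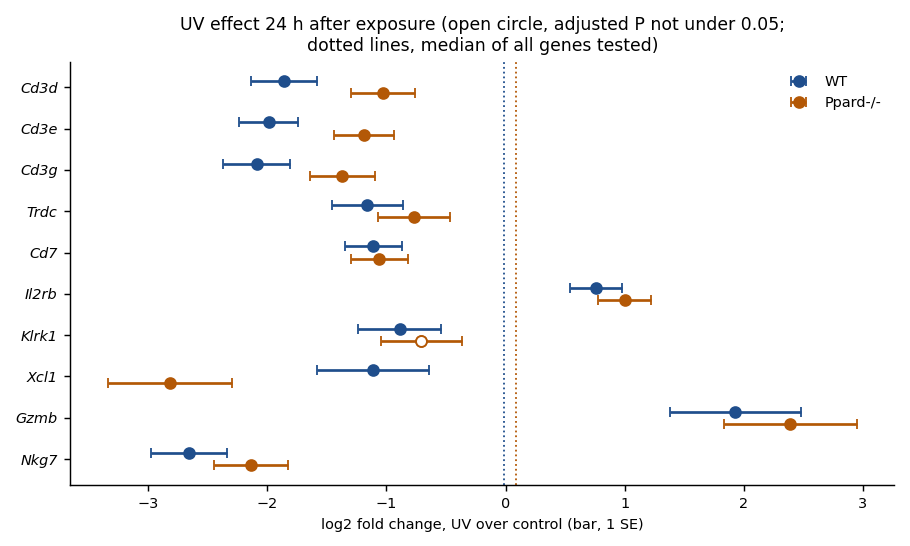
Log2 fold change of UV over control (horizontal axis) for each gene in WT (blue) and KO mice (orange, labelled Ppard-/-), with bars of 1 SE. All genes but Il2rb and Gzmb lie left of the dotted medians of all genes (-0.01 and 0.09), and the open circle is Klrk1 in KO mice (adjusted P = 0.0664).

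Among the other surface receptors, Cd7, an immunoglobulin family receptor of T and natural killer cells, fell in both genotypes. It had 3.75 to 26.1 cpm in WT controls (median 16.5) and 6.32 to 9.87 cpm after UV (median 6.96), a 2.17-fold fall (adjusted P = 0.00019). In KO mice the values were 9.31 to 23.9 cpm (median 17.8) and 5.19 to 9.99 cpm (median 8.08), a 2.09-fold fall (adjusted P = 0.000332). Both pairs of groups overlapped, in WT mice only through mouse 43M.

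Il2rb, the beta chain shared by the receptors for the cytokines encoded by Il2 and Il15, rose. WT controls held 3.02 to 11.4 cpm (median 8.27) and exposed WT mice 8.1 to 28.3 cpm (median 12.8), a 1.69-fold rise (log2 0.76 ± 0.22, adjusted P = 0.00369). KO controls held 6.75 to 13.1 cpm (median 10.1) and exposed KO mice 12.5 to 34.4 cpm (median 16.8), a 1.99-fold rise (log2 1.00 ± 0.22, adjusted P = 0.000281). The groups overlapped in both genotypes, and mouse 77F, at 28.3 cpm, lay above the next exposed WT mouse at 16.1 cpm.

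Klrk1, the gene of NKG2D, which binds stress ligands on keratinocytes, had the smallest fall of the called genes in WT mice. It went from 0.729 to 6.08 cpm (median 3.3) to 0.654 to 4.21 cpm (median 1.67) in WT mice, 1.85-fold (log2 -0.89 ± 0.35, adjusted P = 0.0235). In KO mice it had 1.66 to 6.62 cpm without UV (median 3.74) and 1.96 to 3.1 cpm with it (median 2.27), a log2 difference of -0.71 ± 0.34 (adjusted P = 0.0664) that did not pass the threshold. The WT call is a marginal one. It was lost when any 1 of 5 WT mice was left out (38M, 51F, 56M, 57F or 63F; adjusted P = 0.0528 to 0.0764). The KO value passed when 43M, 67M, 69F or 77F was left out (adjusted P = 0.0345 to 0.0482). Of these, 43M and 77F are WT mice, and without either the KO value stayed at -0.71.

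The effector and granule genes moved in opposite directions. Nkg7, a membrane protein of cytotoxic granules, had the deepest fall of the 10 genes in WT mice, from 1.35 to 9.52 cpm (median 5.18) to 0.291 to 1.62 cpm (median 0.898). That was 6.33-fold (log2 -2.66 ± 0.32, adjusted P = 2.09e-08), and only mouse 43M among the controls lay within the exposed range. In KO mice it fell 4.42-fold (log2 -2.14 ± 0.31, adjusted P = 6.2e-07), from 3.43 to 7.77 cpm to 0.579 to 2.06 cpm without overlap.

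Xcl1, a chemokine that draws cross-presenting dendritic cells, was read at low depth. WT controls had 8 to 44 reads (0.292 to 1.63 cpm, median 1.15) and exposed WT mice 0 to 28 reads (0 to 0.886 cpm, median 0.583). Mice 57M (0 reads) and 51F lay far below the other exposed WT mice, and the fall was 2.15-fold (log2 -1.11 ± 0.47, adjusted P = 0.038). KO controls had 23 to 57 reads (0.615 to 2.33 cpm, median 1.06) and exposed KO mice 1 to 9 reads (0.0388 to 0.331 cpm, median 0.139). The KO groups did not overlap, and the fall was 7.05-fold (log2 -2.82 ± 0.52, adjusted P = 2.43e-05), the deepest of the 10 genes in KO mice. The WT call was lost when any 1 of 8 WT mice was left out (51F, 54M, 57F, 59F, 69M, 71F, 71M or 73F; adjusted P = 0.0501 to 0.0839).

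Gzmb, the serine protease granzyme B that granules deliver into target cells, rose from a level near the limit of detection. WT controls had 2 to 9 reads (0.0637 to 0.328 cpm, median 0.172) and exposed WT mice 5 to 70 reads (0.182 to 2.41 cpm, median 0.406). The groups overlapped, mouse 77F stood apart at 2.41 cpm with the next mouse at 1.04 cpm, and the rise was 3.8-fold (log2 1.93 ± 0.55, adjusted P = 0.00299). KO controls had 0 to 10 reads (0 to 0.286 cpm, median 0.149) and exposed KO mice 5 to 51 reads (0.166 to 1.67 cpm, median 0.844), a 5.23-fold rise (log2 2.39 ± 0.56, adjusted P = 0.000484). At these counts the size of the fold is loosely held. No control of either genotype reached the minimum of 1 cpm, so Gzmb was tested only because of exposed mice. A rise was therefore favoured by the filter.

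Separation between single mice was read against all genes. In WT mice none of the 10 genes had control and exposed mice without overlap, where 43.4% of all genes did. Without mouse 43M there were 5, Cd3d, Cd3e, Cd3g, Cd7 and Nkg7, against 46.3% of all genes. Without mice 43M, 54F and 77F, a choice made after seeing the data, there were 6, Trdc being added, against 47.6%. In KO mice Cd3g, Xcl1 and Nkg7 were without overlap, 3 of 10 against 35.1% of all genes, and the same 3 were without overlap when mice 43M, 54F and 77F were left out (37.8% of all genes). All UV calls of the 10 genes in WT mice held in the fit without these 3 mice, and Klrk1 in KO mice passed the threshold there (log2 -0.70, adjusted P = 0.0266).

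The order of the genes within a library was compared per length, as TPM, a share of the library per kilobase of exon, computed from the counts and the merged exon length of each gene. In WT controls Cd7 was highest at 47.2 ± 21.2 TPM (SD, n = 8), followed by Nkg7 (21.4 ± 9.52), Cd3g (19.1 ± 7.54), Trdc (16.6 ± 7.42) and Cd3e (12.2 ± 5.38). Cd3d, Xcl1 and Il2rb lay close together at 7.15 ± 2.38, 7.03 ± 3.06 and 6.38 ± 2.11 TPM, with Klrk1 at 1.52 ± 0.799 and Gzmb at 0.407 ± 0.204 TPM. Neighbours in this order had overlapping ranges over mice throughout. After UV in WT mice Cd7 was still first (19.4 ± 3.17 TPM), Il2rb had moved from rank 8 to rank 2 (9.69 ± 4.42 TPM) and Nkg7 from rank 2 to rank 5 (3.07 ± 1.35 TPM). The same pair of shifts occurred in KO mice, where Il2rb went from rank 7 to rank 2 (12.5 ± 4.92 TPM) and Nkg7 from rank 2 to rank 6 (4.08 ± 1.93 TPM), while Xcl1 went from rank 6 to rank 10 (0.876 ± 0.514 TPM).

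To ask whether the genes moved by the same amount as Cd3e, each level was set against Cd3e of the same mouse, as the log2 ratio of cpm with a prior count of 1. UV and control mice were compared by a two-sided exact permutation test within sex (4900 arrangements, smallest P = 0.000408, 18 tests with Benjamini-Hochberg adjustment). The ratio of Cd3d to Cd3e differed between UV and control by -0.01 in WT mice (adjusted exact P = 0.952) and by 0.09 in KO mice (adjusted exact P = 0.733). That of Cd3g differed by -0.22 and -0.21 (adjusted exact P = 0.185 and 0.0588). It passed in KO mice without 66F or 72M (adjusted exact P = 0.0171 and 0.0247) and in WT mice without 32M (adjusted exact P = 0.0322).

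Most other genes did not keep their ratio. Il2rb rose against Cd3e by 2.57 log2 units in WT mice and 2.15 in KO mice (adjusted exact P = 0.00147 in both), with no overlap in either genotype. Gzmb rose by 3.28 and 3.41 (adjusted exact P = 0.00184 and 0.00147). Klrk1 rose by 1.02 and 0.53 (adjusted exact P = 0.00327 and 0.0174), which means only that it fell less than Cd3e. Trdc did so too, by 0.73 and 0.40 (adjusted exact P = 0.00588 and 0.0294). Nkg7 fell beyond Cd3e, by -0.72 and -1.01 (adjusted exact P = 0.00184 and 0.00147).

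Cd7 and Xcl1 passed in 1 genotype each. Cd7 rose against Cd3e by 0.87 in WT mice (adjusted exact P = 0.00147, no overlap), and its value in KO mice was 0.11 (adjusted exact P = 0.593). Xcl1 fell against Cd3e by -1.49 in KO mice (adjusted exact P = 0.00184), and its value in WT mice was 0.36 (adjusted exact P = 0.685) with an SD of 1.71 among exposed mice. The difference between genotypes in these ratios was not tested. With Cd3d as the denominator, the KO values of Trdc (0.31) and Klrk1 (0.45) no longer passed (adjusted exact P = 0.14 and 0.124). The Trdc value in KO mice was also lost without 44F, 62F, 58M or 59M (adjusted exact P = 0.0637 to 0.0774).

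**Figure D3:**
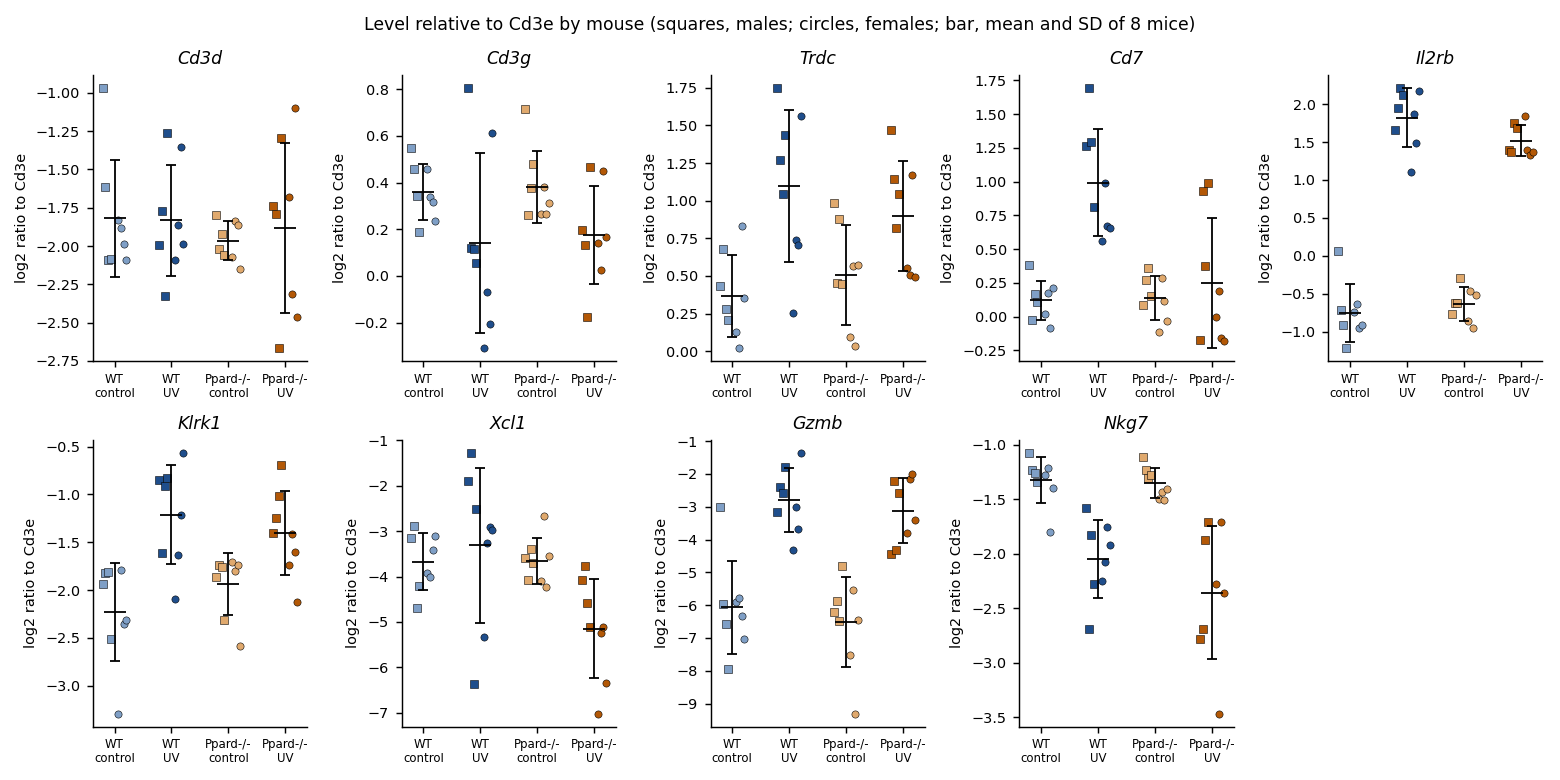
Log2 ratio of each gene to Cd3e (vertical axis) in the same mouse, by group; squares are males, circles females, and bars show the mean and SD of 8 mice. Il2rb moves from a mean of -0.75 to 1.82 in WT mice with no overlap, while Cd3d stays at -1.82 and -1.83.

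Between genotypes no gene passed the threshold. Without UV the log2 difference, KO over WT, lay between -0.21 (Gzmb) and 0.25 (Klrk1), and 0 of 10 genes were called where 0.206% of all genes were, with 0 also at an unadjusted P under 0.05. After UV 9 of the 10 genes had a higher fitted level in KO than in WT mice, with a median log2 difference of 0.45 against 0.02 over all genes. Again 0 of 10 passed, where 3.31% of all genes did, and 4 had an unadjusted P under 0.05. Cd3e was at 6.46 cpm (median) in exposed KO mice against 3.84 cpm in exposed WT mice (log2 0.76 ± 0.25, adjusted P = 0.0813). Cd3d differed by 0.76 ± 0.27 (adjusted P = 0.113) and Cd3g by 0.73 ± 0.27 (adjusted P = 0.132).

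Xcl1 went the other way, with a median of 0.139 cpm in exposed KO mice and 0.583 cpm in exposed WT mice (log2 -1.66 ± 0.52, adjusted P = 0.0683). No gene had exposed KO and WT mice without overlap, where 0.187% of all genes did, and none had such controls (0.103% of all genes). The UV effect itself was compared between genotypes by the interaction, where 0 of 10 genes passed against 0.765% of all genes and 3 had an unadjusted P under 0.05. These were Xcl1 (-1.71 ± 0.69, adjusted P = 0.173), Cd3e (0.80 ± 0.35, adjusted P = 0.197) and Cd3d (0.84 ± 0.38, adjusted P = 0.224).

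Calls between genotypes depended on single mice and on the sex fitted. Cd3e after UV passed when WT control 43M was left out (adjusted P = 0.0133), with the same value of 0.76 as over all mice. As a control, 43M is not part of that comparison and enters only through the fit shared by all mice. The interaction of Cd3e also passed without 43M (0.98, adjusted P = 0.0441). Cd3g after UV passed without WT UV mouse 77F (0.97, adjusted P = 0.0357) and Xcl1 without WT UV mouse 57M (-1.88, adjusted P = 0.0197). Without mice 43M, 54F and 77F, 4 genes were called higher in KO than in WT mice after UV: Cd3e (0.87, adjusted P = 0.00602), Cd3g (1.02, adjusted P = 0.00448), Trdc (0.82, adjusted P = 0.0391) and Il2rb (0.66, adjusted P = 0.0285). In that fit the interaction of Cd3e (1.08, adjusted P = 0.0255) and Cd3g (1.16, adjusted P = 0.03) passed as well. DESeq2, on all mice, called Cd3e (0.74, adjusted P = 0.0434) and Xcl1 (-1.71, adjusted P = 0.0187) after UV. The 2 genotypes are therefore neither shown to differ nor shown to be alike in these genes.

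Males and females were also read apart, first within the fit over all 32 mice. In WT males 7 of 10 genes were lower and 0 higher, where 31.1% and 29.8% of all genes were, and in WT females 6 were lower and 2 higher (31.1% and 30.1%). In KO males 6 were lower and 1 higher (30.9% and 30.9%), and in KO females 6 and 2 (26.7% and 34%). In each of these sets of 4 against 4 mice the same 8 genes had a negative sign. When males were fitted on their own, without the females, the lower genes in KO mice were 3, with Cd3d (adjusted P = 0.0679), Trdc, Cd7 and Xcl1 (adjusted P = 0.053) no longer passing, and WT mice had 7 lower genes and 1 higher. Females on their own gave 7 lower and 2 higher genes in each genotype. The sex-by-UV interaction called 0 of 10 members and 0% of all genes by edgeR's quasi-likelihood test. None of the 10 had an unadjusted P under 0.05, and their values lay between -1.31 ± 0.69 (Xcl1, adjusted P = 0.73) and 1.08 ± 0.78 (Gzmb, adjusted P = 0.801). Of the 15546 genes 1091 had an unadjusted P under 0.05, while DESeq2 called 22 genes and limma-trend 2.

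Within groups the genes went up and down together from mouse to mouse. After the mean of each group and sex was taken out, the 45 pairs of the 10 genes had Pearson correlations of log2 cpm over 32 mice from -0.16 to 0.93 (median 0.72), and Spearman correlations from -0.10 to 0.90 (median 0.59). Cd3g with Trdc had r = 0.93 and Cd3e with Cd3g r = 0.91. Xcl1 and Gzmb followed the others least, with medians of 0.27 and 0.06 over their 9 pairs, and both had few reads. The correlations are a description over mice that share library depth and tissue sampling. Without mouse 43M the median over pairs was 0.54, and without 43M, 54F and 77F it was 0.44.

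**Figure D4:**
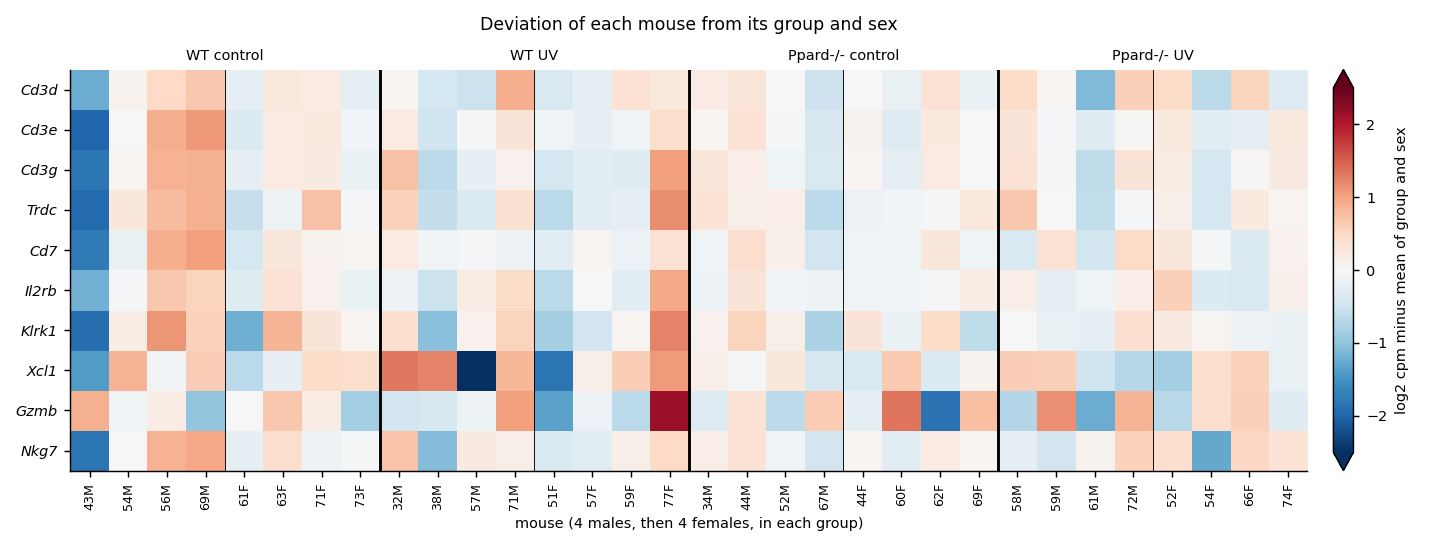
Colour gives the log2 cpm of each gene (rows) in each of the 32 mice (columns) minus the mean of its group and sex, from -2.5 (blue) to 2.5 (red). The column of mouse 43M is blue for 9 genes and red for Gzmb, and Xcl1 and Gzmb differ from the other rows in many mice.

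Among 14905 other genes with a mean of at least 10 reads, those close to the members by median correlation included Prf1 (0.81), the pore-forming granule protein perforin, Ctla2a (0.77), Trdv4 (0.77), the variable segment of the epidermal delta chain, and Klrb1b (0.76), a lectin-like receptor. The median gene had a value of -0.01. Without mouse 43M the value of Prf1 was 0.67, and Trdv4 was at rank 26 (0.52). With UV, Prf1 fell 3.7-fold in WT and 2.99-fold in KO mice (adjusted P = 2.22e-05 and 0.000191).

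The wider pathway was read in 6 further lists, whose calls stand against 36.5% of all genes lower and 34.5% higher in WT mice, and 33.5% lower and 37.3% higher in KO mice. Of the gamma and delta chain segments, 5 of 7 were tested; all 5 were lower in WT mice and 4 in KO mice, with median log2 fold changes of -2.45 and -1.33. Tcrg-V5, the variable segment of the epidermal gamma chain, fell from 0.328 to 3.49 cpm to 0 to 0.586 cpm in WT mice (log2 -3.03 ± 0.47, adjusted P = 1.84e-06), and by 2.11 in KO mice (adjusted P = 0.000137). The constant regions Tcrg-C1, Tcrg-C4 and Tcrg-C2 fell by 2.45, 2.72 and 2.41 in WT mice, and Tcrg-C2 had -0.58 ± 0.46 in KO mice (adjusted P = 0.264). These segments are near-identical copies in part, and the way reads were split between them is uncertain.

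In receptor-proximal signalling 12 of 19 tested genes were lower (63.2%) and 1 higher in WT mice, with a median of -1.06. In KO mice 8 were lower, a share (42.1%) not far from that of all genes, and 2 were higher (median -0.38). Themis, an adaptor of T cell receptor signalling, had log2 fold changes of -3.15 ± 0.51 in WT and -2.72 ± 0.50 in KO mice (adjusted P = 3.8e-06 and 2.4e-05). Skap1 (-2.68 and -1.44), the surface receptor Cd96 (4-fold and 2.86-fold lower) and Cd247 (-1.84 and -1.17), the zeta chain of the receptor complex, were lower in both genotypes. Among transcription factors of the T lineage 6 of 13 were lower (46.2%) and 4 higher (30.8%) in WT mice, and 5 and 5 in KO mice (38.5% each; medians -0.34 and -0.16), shares near those of all genes. Among them were Zbtb16 at -2.83 and -2.01, Id3 at -2.74 and -2.53, Nr4a1 at 1.95 and 1.94 and Sox13 at 2.82 and 3.10. Keratinocytes also express several of these factors.

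**Figure D5:**
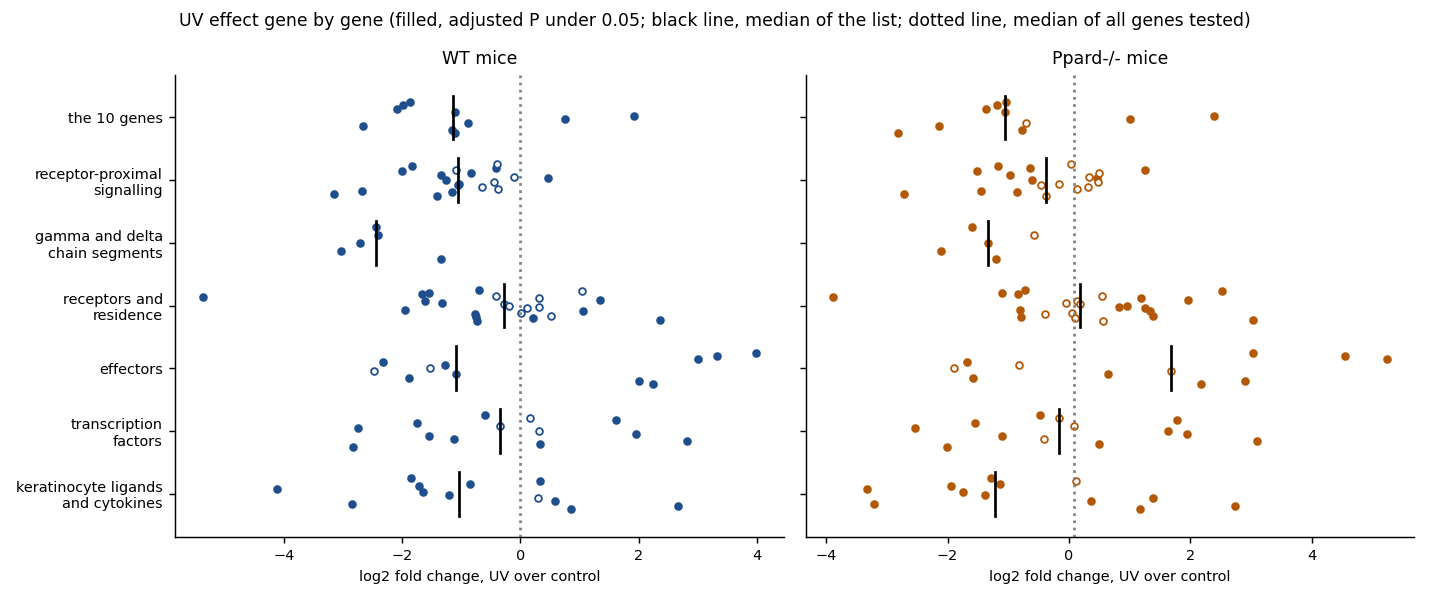
Log2 fold change of UV over control (horizontal axis) for every tested gene of the 10 genes and of 6 further lists, in WT (left) and KO mice (right); filled points have an adjusted P under 0.05 and black lines are list medians. All 5 gamma and delta chain segments lie below 0 in both panels, and effectors spread to both sides.

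Receptors and residence genes were mixed. Of 23 tested, 10 were lower (43.5%) and 4 higher (17.4%) in WT mice, and 6 were lower (26.1%) and 9 higher (39.1%) in KO mice (medians -0.28 and 0.19). The share lower in WT mice and the share higher in KO mice were near those of all genes. Ctla4, an inhibitory receptor, went from 0.911 to 5.93 cpm in WT controls to 0 to 0.136 cpm after UV (log2 -5.37 ± 0.48, adjusted P = 1.03e-10), and had -3.88 ± 0.44 in KO mice (adjusted P = 7.88e-09). Itgae, the integrin chain that anchors T cells to keratinocyte E-cadherin, had -1.96 ± 0.26 and -0.81 ± 0.25 (adjusted P = 1.73e-07 and 0.00579), and Cd52 had -1.67 and -0.84. Tnfrsf9, the costimulatory receptor induced on activated T cells, rose from 0.62 to 1.59 cpm to 3.05 to 11.5 cpm in WT mice (log2 2.36 ± 0.27, adjusted P = 1.36e-08), and its rise in KO mice was 3.03 ± 0.28 (adjusted P = 2.11e-10). Neither group of WT mice overlapped the other for Ctla4 or Tnfrsf9.

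Effectors made by activated T cells were mixed as well, with 5 of 11 higher (45.5%) and 4 lower (36.4%) in WT mice and 6 higher (54.5%) and 2 lower (18.2%) in KO mice (medians -1.09 and 1.69). The share lower in WT mice was near that of all genes. The chemokine Ccl3 went from at most 0.331 cpm in WT controls to 0.273 to 2.65 cpm (log2 3.33 ± 0.58), and Ccl4 from at most 0.331 cpm to 0.231 to 2.28 cpm (8.01-fold). No WT control reached the minimum of 1 cpm for Ccl3 or Ccl4. In KO mice they rose by 4.55 ± 0.60 and 5.24 ± 0.67, from levels at which some controls had no read. Areg, a growth factor that keratinocytes make too, rose by 3.99 and 3.04, and Ctsw, a cysteine protease of cytotoxic lymphocytes, had -2.32 and -1.68. Of the 21 listed effectors, 10 (Ifng, Fasl, Csf2 and Il17a among them) were below the minimum and were not tested.

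Of the signals that keratinocytes present to these cells, 7 of 12 tested genes were lower (58.3%) and 4 higher (33.3%) in each genotype (medians -1.03 and -1.21), the share higher being near that of all genes. Il15, the cytokine read through Il2rb, fell from 8.97 to 19.7 cpm in WT controls to 0.327 to 0.885 cpm after UV, which was 17.2-fold (adjusted P = 3.12e-15). In KO mice it fell 9.96-fold (adjusted P = 1.14e-13), while Il2rb rose in the same mice. Skint1, which selects these T cells in the fetal thymus and is made by keratinocytes, fell from 35 to 81.5 cpm to 2.55 to 11.8 cpm in WT mice (log2 -2.85 ± 0.28) and by 3.21 in KO mice. H60c, a ligand of NKG2D, fell from 110 to 202 cpm to 8.53 to 68.8 cpm in WT mice (log2 -1.71 ± 0.27, adjusted P = 1.96e-06) and by 1.95 in KO mice.

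Another NKG2D ligand gene, Ulbp1, rose by 0.86 ± 0.32 in WT (adjusted P = 0.0193) and 1.17 ± 0.32 in KO mice (adjusted P = 0.0022). Raet1d, Raet1e and H60b, which encode further ligands, had at most 1 read in any control and at most 13, 5 and 12 reads in any exposed mouse, and were not tested. Tslp rose by 2.66 and 2.74, and Ccl27a, a skin chemokine, had -1.85 and -1.29.

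A few genes of these lists differed between genotypes. After UV, Zap70 (1.09 ± 0.19, adjusted P = 0.00352), Lcp2 (0.98), Ptprc (0.80), Itgae (1.00), Tyrobp (1.13), Ltb (0.99) and Igf1 (4.64 ± 1.31, adjusted P = 0.0469) were higher in KO than in WT mice. Igf1 is also a fibroblast gene, and without mouse 54F its value was 2.06 (adjusted P = 0.306). In the same comparison 7 of 8 dermal fibroblast genes (87.5%) were called higher, where 3.31% of all genes were called. These 7 were Col1a1, Col1a2, Col3a1, Dcn, Lum, Fbn1 and Pdgfra (3.34 to 5.17). Mouse 54F had 2236 cpm of the summed fibroblast markers, and the next exposed KO mouse 39.9 cpm. Values of these 7 genes without 54F are not given here, so they are not read as a genotype effect. Igf1 lost its call in 22 of the 32 fits that left out 1 mouse. Ptprc, Tyrobp, Lcp2, Itgae and Ltb each lost theirs in 6 to 8 of these fits. In males alone Lcp2, Ptprc and Tyrobp had values of -0.01, -0.01 and -0.11 after UV. Zap70, Itgae and Ltb had 0.99, 1.03 and 0.56 there, and all of these calls were lost in males. Langerhans cells, which share several of these genes, had a summed marker level of 332 to 492 cpm in exposed WT mice and 329 to 1047 cpm in exposed KO mice, and its part in the difference was not tested.

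Other cells of the epidermis changed beside the T cell genes. With UV the Langerhans cell sum went from 537 to 1196 cpm to 332 to 492 cpm in WT mice and from 349 to 1073 cpm to 329 to 1047 cpm in KO mice. Of its 12 genes 7 were lower (58.3%) and 1 higher (8.33%) in WT mice (median log2 -1.16), against 36.5% and 34.5% of all genes. The largest falls were those of Ltc4s (-2.09), Cd207 (-1.70), which encodes langerin, H2-Ab1 (-1.65) and H2-Eb1 (-1.56). In KO mice 6 were lower (50%) and 4 higher (33.3%; median -0.15), against 33.5% and 37.3% of all genes. The higher ones were Ccr7 (1.27), Cd40 (1.09), Cd86 (0.85) and Mfge8 (0.70), and their share was near that of all genes. The keratinocyte sum went from 77022 to 87955 cpm to 35388 to 50616 cpm in WT mice, where Krt15, a keratin of basal cells, had -6.08, Krt1 -2.41 and Lor -2.38, while Dsg3, a desmosomal cadherin, had 2.69. Beside Gzmb, Il2rb, Ccl3 and Ccl4, 5 of 6 tested genes in the list of neutrophils and monocytes were higher in each genotype (medians 1.19 and 1.73). That share was 83.3%, against 34.5% of all genes in WT and 37.3% in KO mice, and 1 gene was lower in KO mice. Ly6g, Ngp, Ltf and Camp of this list did not pass the minimum. Csf3r was 6.82-fold and 14.6-fold higher, Ly6c2 had 2.38 and 1.92, Ccr2 1.35 and 2.66 and Mpo 1.03 and 1.49. The summed level of the neutrophil and monocyte list was 22.6 to 44.2 cpm in WT controls and 33.7 to 49.6 cpm after UV. In KO mice it was 28.6 to 64.9 cpm and 30.8 to 95.2 cpm, with mouse 54F at 95.2 cpm and the next exposed KO mouse at 64.9 cpm. The part of these cells in the rise of the effector genes was not tested. Of 3 B cell genes tested, Cd79a rose in both genotypes (6.51 and 6.28) and Ighm fell in WT mice (-1.93). Postn (-5.53), Col1a2 (-3.05), Col1a1 (-3.03) and Col3a1 (-2.42) of the dermal fibroblast list were lower in WT mice. In KO mice Postn was also lower (-4.08, adjusted P = 7.92e-09). Col1a2, Col1a1 and Col3a1 had 0.93, 0.68 and 1.52 there (adjusted P = 0.301, 0.439 and 0.118). The summed level of that list had a KO median of 305 cpm without UV and 22.3 cpm after it, with mouse 54F at 2236 cpm. The list of other T cells and natural killer cells summed to 37.6 to 55.5 cpm in WT controls and 36 to 53.4 cpm after UV, most of it Trbc2, which had 0.03 ± 0.11 with UV (adjusted P = 0.805). Of its 6 tested genes Trac, Cd8a and Cd4 were lower in WT mice (-1.38, -1.69 and -1.14), a share of 50% against 36.5% of all genes. In KO mice Cd4 was higher (1.12, adjusted P = 0.0315), and Trac and Cd8a had 0.13 and 0.05 (adjusted P = 0.748 and 0.945). Mouse 43M had 1129 cpm of Langerhans markers and 83269 cpm of keratinocyte markers, both within its group. Its dermal fibroblast sum, 515 cpm, was the second highest of the WT controls.

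Promoter sequences were available from RefSeq (GRCm38.p6) for 7 of the 10 genes, Cd3d, Cd3e, Cd3g, Klrk1, Xcl1, Gzmb and Nkg7, as 250 bases before and 50 after the annotated start. The 4 printed here were picked because they belong to the receptor gene Cd3e and to the 3 effector genes: Nkg7, with the deepest fall in WT mice, Xcl1, with the deepest in KO mice, and Gzmb, which rose. Capitals mark matches, on either strand, to 6 motifs of transcription factors of T cells, whose letters are given with their counts. None of the marked matches overlap.
Cd3e (chr9:45009562-45009861, minus strand): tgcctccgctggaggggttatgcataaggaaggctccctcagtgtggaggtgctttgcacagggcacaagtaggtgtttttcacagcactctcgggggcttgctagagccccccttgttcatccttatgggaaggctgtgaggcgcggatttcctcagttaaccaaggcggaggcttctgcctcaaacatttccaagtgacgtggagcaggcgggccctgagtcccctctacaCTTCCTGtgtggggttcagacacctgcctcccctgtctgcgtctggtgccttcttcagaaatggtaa
Nkg7 (chr7:43436888-43437187, plus strand): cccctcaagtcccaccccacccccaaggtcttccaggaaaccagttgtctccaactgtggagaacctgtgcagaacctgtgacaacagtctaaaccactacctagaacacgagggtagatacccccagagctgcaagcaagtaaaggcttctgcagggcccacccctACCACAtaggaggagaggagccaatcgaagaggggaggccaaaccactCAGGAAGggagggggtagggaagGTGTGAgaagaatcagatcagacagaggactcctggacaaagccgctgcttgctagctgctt
Xcl1 (chr1:164935473-164935772, minus strand): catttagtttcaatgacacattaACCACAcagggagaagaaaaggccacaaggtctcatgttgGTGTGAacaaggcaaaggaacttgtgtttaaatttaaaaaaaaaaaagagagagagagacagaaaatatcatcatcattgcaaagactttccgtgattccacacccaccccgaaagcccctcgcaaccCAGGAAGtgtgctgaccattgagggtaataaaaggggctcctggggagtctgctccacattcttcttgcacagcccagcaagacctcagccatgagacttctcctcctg
Gzmb (chr14:56262285-56262584, minus strand): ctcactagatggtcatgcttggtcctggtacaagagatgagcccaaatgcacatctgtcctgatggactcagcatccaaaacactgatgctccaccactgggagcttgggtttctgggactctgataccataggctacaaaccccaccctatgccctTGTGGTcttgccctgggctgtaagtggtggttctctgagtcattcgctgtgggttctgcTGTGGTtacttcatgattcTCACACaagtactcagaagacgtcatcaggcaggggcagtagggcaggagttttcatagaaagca
The RUNX core TGTGGT was in 4 of the 7 promoters (Gzmb, Klrk1, Nkg7 and Xcl1) and in 16.8% of the 32851 promoters of the table. The ETS letters CAGGAAG were in Cd3e, Nkg7 and Xcl1 (13.3% of all promoters). The T-box letters TCACAC were in Gzmb, Nkg7 and Xcl1 (14.5%). Cd3g alone held the GATA letters AGATAA (11.2%). It was also alone in holding the E-box CAGCTG (16.3%). The TCF/LEF letters CTTTGA were in Cd3d and Klrk1 (16%). Nkg7 and Xcl1, which fell, and Gzmb, which rose, thus all held RUNX and T-box letters. A match is a description of these letters and not of a bound site.

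The 10 genes lie at 8 places in the genome (GRCm38, GENCODE M21). Cd3g (chr9:44969572-44980431, minus strand), Cd3d (chr9:44981786-44987339, plus strand) and Cd3e (chr9:44998740-45009627, minus strand) are neighbours. Trdc is at chr14:54142851-54148868 (plus strand) and Gzmb at chr14:56258838-56262260 (minus strand). The others are Cd7 at chr11:121036747-121039418, Il2rb at chr15:78479256-78495271, Klrk1 at chr6:129610323-129623864 and Xcl1 at chr1:164931644-164935527, all on the minus strand, and Nkg7 at chr7:43437073-43438249 on the plus strand.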

How the data were processed

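Epidermal RNA of 32 mice was measured by RNA sequencing (stranded mRNA libraries; RNA quality numbers of 6.4 to 8.4 per the labels). Per the submitters' processing notes, the authors trimmed reads with cutadapt 1.8, aligned them with STAR 2.5.3a to GRCm38 and counted them with HTSeq 0.9.1. The authors deposited whole-number read counts per gene, without normalization. Rows for reads on no feature (6.8 to 9.75% of uniquely aligned reads) and other totals were left out. Symbols came from GENCODE M21, which held 55141 of 55401 identifiers.

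The 15546 genes that reached 1 cpm in any mouse were fitted in edgeR 4.0.16 (TMM scaling, quasi-likelihood test, R 4.3.3) with 8 means of genotype, treatment and sex. UV and genotype contrasts weighted the sexes equally, with Benjamini-Hochberg adjustment over all tested genes and a threshold of 0.05. An SE is the log2 fold change divided by the root of its F statistic. Per-length levels used merged exon lengths. DESeq2 1.42.0 and limma 3.58.1 served as alternatives, with other scalings, filters and sets of mice. The fits were tested on simulated data. Counts of the 112 pairs of mice within groups differed by more than sampling noise (chi-square per gene of 21.2 to 198), and nothing in the labels names a shared batch.

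The 10 genes and the lists were chosen with earlier results of these data known. From the other lists, up to 4 genes with the largest UV effect in WT mice among those with an adjusted P under 0.05 were named, any gene called between genotypes, and Il15, Skint1 and the NKG2D ligand genes whatever their values. The 5 genes closest to the members by median correlation were also to be named, and 1 of them is not reported here. Fold changes of low counts are shrunk by the prior, and each SE includes the spread between mice.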

Additional observations from a re-analysis of the deposited data

Results flagged for a closer look

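In WT mice after UV, mouse 77F stood apart from the 7 others by Dixon's criterion for 3 of the 10 genes: Il2rb at 28.3 cpm, Klrk1 at 4.21 cpm and Gzmb at 2.41 cpm. Chance alone passes this criterion in about 1 of 20 groups, and 40 groups of 8 mice were checked. The UV effects of all 3 genes in WT mice passed the threshold also in the fit without mice 43M, 54F and 77F.

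Among the pathway lists the UV effect differed between genotypes, by the interaction, for 2 genes. Ltb, a cytokine of lymphoid cells, had an interaction of 1.73 (adjusted P = 0.0162): it fell in WT mice from a median of 1.83 to 0.729 cpm and went from 1.12 to 1.9 cpm in KO mice. Areg had an interaction of -0.95 (adjusted P = 0.0193), with medians of 6.7 and 92 cpm in WT mice and 9.89 and 83.1 cpm in KO mice. Both interactions kept their call in all 32 fits that left out 1 mouse, and lost it with no sex in the model (adjusted P = 0.0898 for each), in males (adjusted P = 0.63 and 0.698) and in females (adjusted P = 0.153 and 0.14). Areg was also higher in KO than in WT controls (0.72 ± 0.15, adjusted P = 0.0233). That call was lost with library totals (adjusted P = 0.0815), with no sex in the model (adjusted P = 0.144), in males (adjusted P = 0.374), in females (adjusted P = 0.895), in 7 of the 32 fits without 1 mouse (34M, 43M, 44M, 54M, 61F, 62F or 71F; adjusted P = 0.0521 to 0.0734) and without 43M, 54F and 77F (adjusted P = 0.059).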

How the results depend on the processing

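Under RLE scaling, library totals, another filter, no sex in the model, DESeq2, limma-trend and the fits of WT or KO mice alone, all UV effects of the 10 genes kept their direction, and the calls that changed were those of Klrk1 and Xcl1. Klrk1 in WT mice lost its call under limma-trend (-0.80, adjusted P = 0.0501), in females (-0.53) and in WT mice alone (-0.89, adjusted P = 0.0698), and in KO mice it gained one under DESeq2 (adjusted P = 0.0492), with no sex in the model (adjusted P = 0.0489) and in KO mice alone (adjusted P = 0.00618). Xcl1 in WT mice lost its call with no filter (-1.10, adjusted P = 0.0554) and in WT mice alone (adjusted P = 0.086). In males alone the higher genes in WT mice were 1 and the lower genes in KO mice 3, with Il2rb and Xcl1 lost in WT mice and Cd3d, Trdc, Cd7 and Xcl1 in KO mice. Leaving out 1 mouse moved the count of genes called after UV between genotypes from 0 to 1 in each direction, and that of the interaction from 0 to 1. Females alone gave 1 higher and 1 lower gene after UV, and DESeq2 also 1 and 1. The fit without 43M, 54F and 77F gave 4 higher genes after UV and 2 in the interaction. These mice were chosen after seeing the levels of the same genes, so that fit cannot decide the question.

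Some signs turned in values near 0. Cd7 turned after UV (-0.02 in females, -0.04 to 0.12 with 1 mouse left out) and in the interaction (-0.14 by limma-trend, -0.33 in females, -0.11 to 0.22 with 1 left out). Klrk1 turned in the interaction (-0.55 in females, -0.01 to 0.48 with 1 left out) and without UV (-0.22 in males). Gzmb turned without UV (0.02 without 3 mice, -0.53 to 0.01 with 1 left out). The ratio of Cd3d to Cd3e turned as well (0.21 against Cd3g in WT mice). With 1 mouse left out it was -0.09 to 0.11 in WT and -0.03 to 0.20 in KO mice. Lcp2, Ptprc and Tyrobp after UV were not near 0 over all mice (0.98, 0.80 and 1.13), but had -0.01, -0.01 and -0.11 in males.

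Over all genes, the genotype difference without UV (32 called) went to 78 by DESeq2, 5 in males, 2 in females and 20 to 45 with 1 mouse left out. After UV (514 called) it went to 1116 by DESeq2, 260 by limma-trend, 263 with no filter, 7 in males, 1383 in females and 133 to 983 with 1 mouse left out. The interaction (119 called) went to 792 by DESeq2, 55 with no filter, 23 with no sex in the model, 6 in males, 12 in females, 180 without 3 mice and 56 to 346. The sex-by-UV interaction went from 0 to 22 by DESeq2, 2 by limma-trend and 0 to 1 with 1 mouse left out. The cause was not tested. No paired analysis was possible because each mouse belongs to 1 group, and groups that were compared share at most 1 mouse number, carried by a male and a female. Xcl1 and Gzmb are limited by depth.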
